A study of Macaca mulatta with 48 samples.

Results

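Immature Sertoli cells of the prepubertal rhesus monkey testis were examined here as the single cells that carried at least 1 unique molecular identifier (UMI, one counted transcript molecule) of AMH and none of DCN or COL1A1, the genes of a proteoglycan and a collagen chain of connective tissue cells. The search was limited to the 4 libraries from 1-year-old animals and to barcodes with at least 300 detected genes, at most 30000 UMIs and at most 3% of UMIs from the 13 mitochondrial genes. It returned 22598 of the 38918 cells that passed these limits before puberty, and the 12 libraries of the series together held 112150 such cells. They are called AMH cells below. Because AMH, DCN and COL1A1 chose the AMH cells, their levels in these cells are given as a description and were not tested. AMH was tested only between ages, in cells chosen without it.

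The series profiled testes of 6 male rhesus monkeys with droplet-based 10x Genomics libraries, with 2 prepubertal animals of 1 year, 2 adult animals of 6 years and 2 aged animals of 22 years. Each animal gave 1 testis in August, outside the breeding season, and the other testis in December, within it. Season therefore cannot be told apart from collection date, age at collection or the removal of the other testis. The paper names compensation after removal of 1 testis and changes over time unrelated to season as limits. The labels give no treatment or transgene. Each library is 1 testis of 1 animal, so that values from the same animal in both seasons are paired, and p-values over libraries measure the spread between these few testes.

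Sertoli cells are the somatic cells of the seminiferous tubule that enclose and feed germ cells. Before puberty they still divide, have not yet formed the blood-testis barrier and secrete anti-Müllerian hormone, the product of AMH, which in the male fetus removes the Müllerian ducts. SOX9, WT1, GATA4 and NR5A1 encode transcription factors known to drive AMH, follicle-stimulating hormone acts on these cells through FSHR, and at puberty androgen action represses AMH while the cells mature and stop dividing. AMH binds AMHR2, which pairs with type I receptors of the bone morphogenetic protein family and signals through SMAD1, SMAD5 and SMAD9 to targets such as ID1.

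The prepubertal libraries held 31491285 to 43405583 UMIs, and the AMH cells alone supplied 17321301 to 27976768 of them. In animal 1, 4957 of 10467 cells (47.4%, Wilson 95% interval 46.4 to 48.3) met the definition in the non-breeding season and 3856 of 7210 (53.5%) in the breeding season. In animal 2 the numbers were 7516 of 11338 (66.3%) and 6269 of 9903 (63.3%). Animal 2 thus had the larger share in both seasons. The share in the breeding season was 6.12 percentage points higher in animal 1 and 2.99 lower in animal 2. The mean share was 56.8% ± 13.4 (SD, n = 2) outside the breeding season and 58.4% ± 6.95 (SD, n = 2) within it, a difference of 1.57 points that was not larger than the spread between animals (two-sided exact permutation test over libraries, p = 1, with 0.333 the smallest p that 2 against 2 libraries allow). Intervals on shares cover counting error only. The prepubertal libraries shared 13 to 41 cell barcodes pairwise, and 4 to 17 of those shared were AMH cells.

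AMH lies on chromosome 19 of the Mmul_10 assembly (chr19:2095891-2099223, plus strand, RefSeq annotation). Its level in the AMH cells, as UMIs per 1000000 of all UMIs of these cells (CPM), was 5224 and 5231 for animal 1 (non-breeding first, then breeding), and 6271 and 5398 for animal 2. The median AMH cell carried 15, 18, 19 and 17 AMH UMIs in the same order, at a median of 2833, 3446.5, 2690 and 2973 UMIs in total. All further lists of 4 values follow this order: animal 1 non-breeding, animal 1 breeding, animal 2 non-breeding, animal 2 breeding.

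AMH transcripts were not limited to the cells kept. An AMH UMI was present in 89.9, 85.0, 95.1 and 88.4% of all cells that passed the limits, and 42.5, 31.5, 28.8 and 25.1% of the cells held an AMH UMI together with a DCN or COL1A1 UMI. Cells with at least 3 UMIs of endothelial markers (VWF, PECAM1 and other genes of vessel-lining cells), which should lack AMH, had an AMH UMI in 77.6, 65.0, 77.4 and 57.7% of cases at median depths of 4675 to 8449 UMIs. In germ cells, taken as cells with at least 2 UMIs of the germ-cell helicase gene DDX4, the shares were 82.0, 65.2, 78.6 and 54.5%. An AMH UMI was therefore found in most cells of other lineages as well. AMH reached 1085 to 1402 CPM in the endothelial-marker cells and 670 to 1463 CPM in the DDX4 cells, and was 5224 CPM or more in the AMH cells, which were chosen by this gene and overlap with both sets. The definition still admitted 117, 72, 33 and 88 endothelial-marker cells and 93, 18, 20 and 16 DDX4 cells. A UMI of at least 1 of 9 genes of other lineages (PTPRC, VWF, PECAM1, CD14, CD68, CD3D, DDX4, ACTA2 and CYP17A1) was seen in 29.9, 28.2, 20.7 and 24.6% of the AMH cells.

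The cells just inside the threshold differed from the bulk of the AMH cells. Those with exactly 1 AMH UMI numbered 443, 234, 104 and 313 and were shallow, with a median of 858 to 1358.5 UMIs. In them SOX9 stood at 69.7, 76.5, 87.3 and 84.3 CPM and INHA, which encodes the inhibin alpha subunit, at 200, 254, 202 and 312 CPM. In AMH cells with 20 or more AMH UMIs the SOX9 level was 402, 289, 383 and 319 CPM and the INHA level 1383, 1336, 1466 and 1292 CPM, higher than with 1 UMI in every library. VWF, a gene of vessel-lining cells, ran the other way, from 131, 270, 155 and 304 CPM in the cells with 1 AMH UMI to 9.15, 7.23, 6.83 and 8.23 CPM in those with 20 or more. DDX4 likewise stood at 140, 95.6, 165 and 90.7 CPM with 1 AMH UMI and at 7.60, 2.62, 2.03 and 2.84 CPM with 20 or more.

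Just outside the threshold, the 466, 316, 102 and 367 cells with no UMI of AMH, DCN or COL1A1 had SOX9 at 71.3, 36.1, 98.7 and 71.9 CPM and INHA at 177, 139, 98.7 and 132 CPM. INHA was thus lower in every library than in the cells with 1 AMH UMI, and SOX9 had no constant order between these 2 sets. VWF in them was 139, 251, 186 and 374 CPM. On the other border, AMH-positive cells that were left out for exactly 1 DCN or COL1A1 UMI (1653, 995, 1556 and 1083 cells) had INHA at 1248, 1252, 1396 and 1160 CPM and SOX9 at 384, 293, 383 and 312 CPM, levels like those of the AMH cells themselves.

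**Figure D1:**
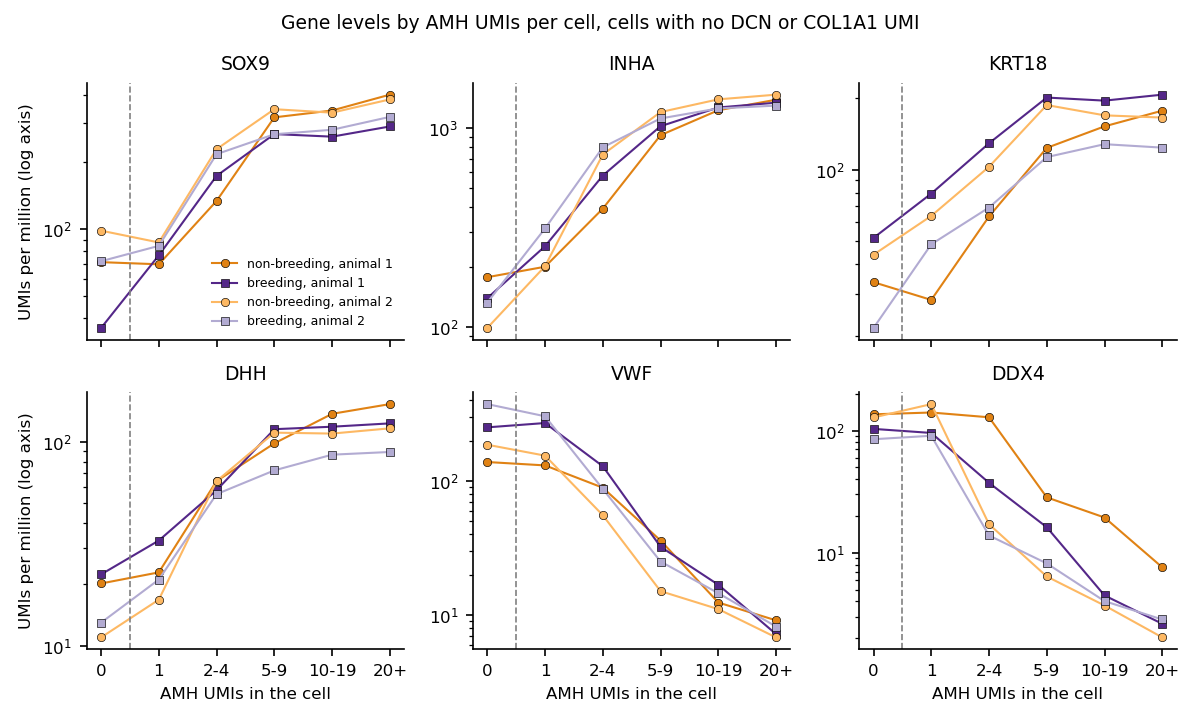
Levels (CPM, log axis) of SOX9, INHA, KRT18, DHH, VWF and DDX4 in prepubertal cells without DCN or COL1A1 UMIs, grouped by the number of AMH UMIs per cell (0, 1, 2 to 4, 5 to 9, 10 to 19, 20 or more), with 1 line per library and the dashed line at the threshold. SOX9 and INHA were higher in every library with 20 or more AMH UMIs (289 to 402 CPM for SOX9) than with 1 (69.7 to 87.3 CPM), and VWF and DDX4 were lower.

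The 3 markers that gave the cells their name, AMH, CLDN3 and KRT18, were all present in every library. CLDN3 (chr3:46128137-46129198), which encodes a tight junction claudin, stood at 185 and 172 CPM in animal 1 and 133 and 87.6 CPM in animal 2. KRT18 (chr11:52512339-52516529), which encodes a keratin that Sertoli cells lose as they mature, stood at 151, 199, 165 and 121 CPM. KRT8 and DMRT1 were on the list of Sertoli markers but are not in the feature table and were not analysed here.

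Among the transcription factors of Sertoli fate, SOX9 (chr16:68419778-68422778), the testis-determining factor downstream of SRY, was at 346, 275, 363 and 301 CPM. WT1, a zinc-finger factor of the gonadal ridge, was at 84.0, 197, 99.5 and 221 CPM and its 2 breeding libraries both lay above the 2 non-breeding ones. GATA6, a relative of GATA4, showed the same order at 65.3, 120, 75.8 and 156 CPM. GATA4 was at 250, 391, 398 and 464 CPM. Other activators of AMH known from other mammals were scarce, with NR5A1 at 8.25, 8.08, 11.3 and 6.28 CPM and SOX8 at 0.539, 0.577, 0.751 and 0.326 CPM.

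Secreted signals of the cells covered germ-cell, Leydig-cell and pituitary targets. DHH, the hedgehog ligand by which Sertoli cells act on Leydig cell precursors, was at 132, 118, 113 and 85.2 CPM. The inhibin subunit genes were unequal within each library, with INHA at 1180, 1261, 1405 and 1238 CPM, INHBB, the beta B subunit, at 133, 183, 208 and 215 CPM, and INHBA, the beta A subunit, at 2.91, 2.83, 2.5 and 2.65 CPM. These 3-prime tag counts compare the same gene between libraries and give only a rough order between genes. GDNF, the growth factor of spermatogonial stem cells, was near its floor at 0.701, 0.635, 0.143 and 0.245 CPM, whereas KITLG, the ligand of the KIT receptor on germ cells, was at 34, 48.5, 26.4 and 58.9 CPM.

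The receptors for FSH and AMH were both found in the AMH cells. FSHR was at 377, 489, 564 and 682 CPM and AMHR2 at 158, 223, 184 and 192 CPM. Of the type I receptors that AMHR2 recruits, BMPR1A was at 267, 357, 344 and 482 CPM, BMPR1B at 249, 343, 319 and 472 CPM and ACVR1 at 39.0, 57.2, 50.7 and 63.8 CPM. ID1, a target of this branch, was at 44.4, 94.1, 157 and 93.3 CPM, lowest in the non-breeding library of animal 1.

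**Figure D2:**
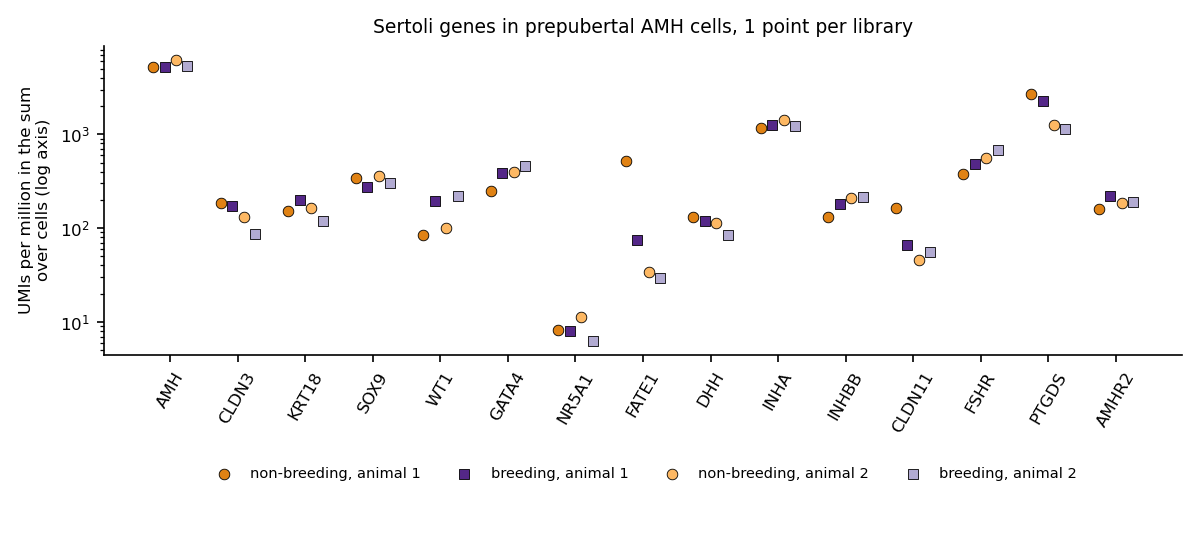
Levels (CPM, log axis) of 15 Sertoli cell genes in the AMH cells, 1 point for each of the 4 prepubertal libraries. AMH lay between 5224 and 6271 CPM, FATE1 spread from 29.7 to 515 CPM with the highest point in the non-breeding library of animal 1, and NR5A1 stayed at or below 11.3 CPM.

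To see what the AMH cells shared beyond the rule, they were set beside the 594, 764, 452 and 781 prepubertal cells that had DCN or COL1A1 UMIs and no AMH UMI. Both sets were defined by these genes, so the ratios of CPM + 1 below are a description, and the AMH-free cells were shallower (medians of 1015 to 1568.5 UMIs). INHA was 7.58 to 9.25 times as high in the AMH cells over the 4 libraries, DHH 8.76 to 14.8 times, FSHR 5.66 to 20.3 times, CLDN3 5.40 to 27.7 times, SOX9 5.19 to 11 times and KRT18 3.94 to 7.64 times. Among genes picked after their ratios were seen, the receptor genes IFNLR1 (9.03 to 21.2), IL12RB2 (7.77 to 18.7) and ERBB4 (5.74 to 25.7), the actin regulator gene WIPF3 (8.19 to 16.4), the desmosome gene DSP (6.54 to 18.4) and GATA5 (6.52 to 24.1) had ratios of the same size as the Sertoli markers. Not all Sertoli markers set the 2 kinds of cell apart: NR5A1 had ratios of 0.820 to 1.5, CLDN11 of 0.702 to 1.74, and SOX8 was lower in the AMH cells, at 0.0475 to 0.114. PDGFRA, a receptor gene of mesenchymal cells, was at 737, 641, 816 and 703 CPM in the AMH cells and only moderately lower than in the AMH-free cells (0.549 to 0.662).

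The non-breeding library of animal 1 stood apart from the other 3. It held 565 AMH cells (11.4%) with 3 or more UMIs of CST9L, a cystatin-like gene that was on the list of mature Sertoli cell genes, and 329 of these had 12 or more. The other 3 libraries held 0 such cells among 3856, 7516 and 6269. In that library the FATE1 level was 515 CPM against 74.2, 34.3 and 29.7 CPM in the others, and the level of CLDN11, which encodes the claudin of the blood-testis barrier, was 165 CPM against 65.5, 45.3 and 55.1 CPM.

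Within that library, the CST9L cells differed in several genes of mature Sertoli cells from the 3167 AMH cells without a CST9L UMI. FATE1 was at 2244 CPM in the CST9L cells and 128 CPM in the others, CLDN11 at 596 and 68.1 CPM, HOPX at 425 and 18.3 CPM, DEFB119 at 489 and 19 CPM, and CITED1 at 1393 and 462 CPM. TF, the gene of the iron carrier transferrin that Sertoli cells pass to germ cells, was at 567 and 199 CPM. Other genes of the mature list went the other way, with RHOXF1 at 42.3 and 85.3 CPM, TSC22D3 at 41.4 and 74.2 CPM and CTSL at 87.9 and 131 CPM. AMH itself was lower in the CST9L cells (3339 against 5651 CPM), as were GATA4 (154 against 267 CPM), KRT18 (56.6 against 171 CPM) and CLDN3 (115 against 202 CPM). SOX9 (398 against 335 CPM), INHA (1331 against 1163 CPM), DHH (125 against 128 CPM) and FSHR (376 against 373 CPM) were alike. The CST9L cells were also deeper, with a median of 4600 against 2568 UMIs.

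Since both sets come from 1 library, the differences between them carry no replicate check. PRM1, a protamine gene of spermatids, stood at 532 CPM in the AMH cells of this library and at 0.16 to 0.25 CPM in those of the other 3. PRM2, TNP1 and TNP2, also genes of spermatids, were at 102, 62.2 and 85.3 CPM in this library and had 0 UMIs in the other 3. Within this library PRM1 had no constant order with CST9L, at 392 CPM in the AMH cells without a CST9L UMI, 1195 CPM in the 1225 cells with 1 or 2 CST9L UMIs and 109 CPM in those with 3 or more. The CST9L cells shared 0 to 5 barcodes with any other library. Whether these cells belong to the 1-year-old testis or came from another sample was not tested.

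**Figure D3:**
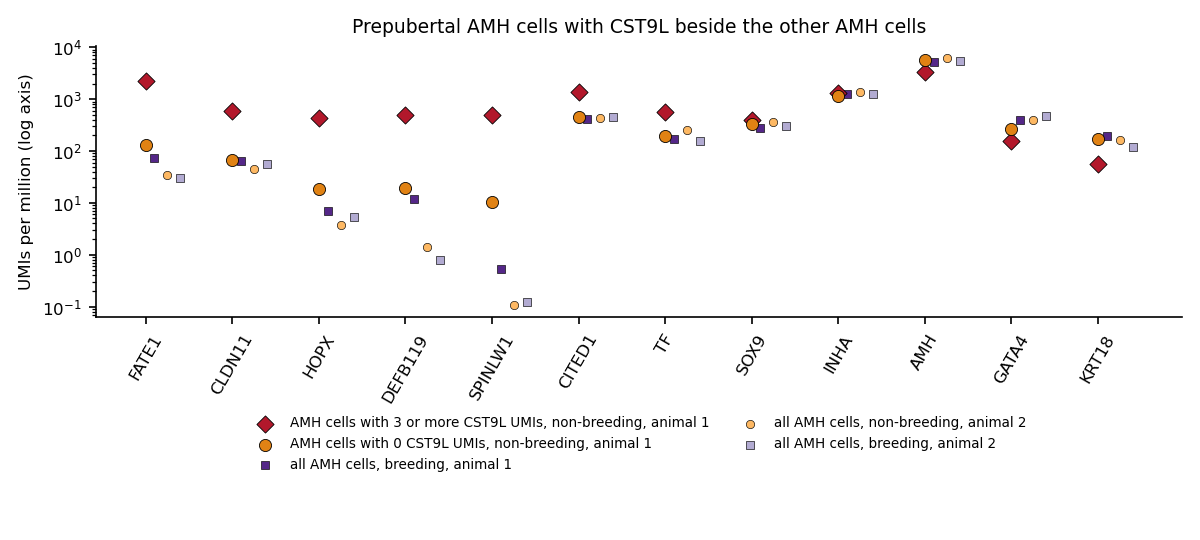
Levels (CPM, log axis) of 12 genes in the CST9L cells (3 or more UMIs) and the cells without a CST9L UMI of the non-breeding library of animal 1, and in all AMH cells of the other 3 prepubertal libraries. FATE1 reached 2244 CPM in the CST9L cells and 128 CPM or less in the other sets shown, whereas AMH, GATA4 and KRT18 were lowest in the CST9L cells.

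Cell-to-cell variation was measured as the variance over the mean of the count (Fano factor) after each AMH cell had been thinned to 2000 UMIs, over 3702 genes. Among the highest values in all 4 libraries were those of TMSB4X, a thymosin gene abundant in blood cells (2.37 or more), B2M, the light chain of class I antigen-presenting molecules (1.91 or more), and ERBB4, a receptor for neuregulins (1.82 or more). AMH, whose counts of 0 the definition removed, had 2.07 or more and is not ranked for that reason. The immediate early gene FOS, PTGDS, which encodes a prostaglandin synthase of Sertoli cells, and the protocadherin gene PCDH11X were also within the most variable 34 genes of every library. Transcripts of cell division were also measured. After the same thinning to 2000 UMIs, which left out 1402, 912, 1410 and 2047 shallower cells, 16.3, 7.81, 10.4 and 13.9% of the AMH cells carried at least 2 UMIs of 21 proliferation genes (27.8, 22.3, 21.8 and 26.7% without thinning). A UMI of MKI67 alone was detected in 99 (2.0%), 15 (0.389%), 43 (0.572%) and 69 (1.1%) of the AMH cells, and at this depth a cell without one cannot be called non-dividing. The highest of these shares belong to the library with the CST9L cells, which stood apart above. TOP2A, also a proliferation gene, was at 58.9, 5.89, 10.7 and 15.3 CPM in the AMH cells. The DDX4 cells among them numbered 93, 18, 20 and 16. Whether the cells counted here were dividing Sertoli cells or cells of another kind was not tested.

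The season was compared in the AMH cells by summing their UMI counts per library, 2 non-breeding against 2 breeding libraries. Fewer cells in a state and less RNA per cell cannot be told apart in such sums. Among the genes with the lowest p, most of those with a symbol were higher in the breeding libraries of both animals, with the immediate early and activity-linked genes HOMER1, FOSL2 and NR4A3 and the Sertoli factor WT1 among them, while the gene with the lowest p, an ID without a symbol, was lower. No gene passed in the unpaired test. With edgeR's quasi-likelihood test, 0 of 15976 genes (0%) had an adjusted p under 0.05, and 1020 genes (6.38%) had an unadjusted p under 0.05, of which 729 were higher (4.56%) and 291 lower (1.82%) in the breeding season. With the animal as a block, which the design calls for since both testes of an animal were sampled, edgeR called 25 genes (0.156%), 23 higher (0.144%) and 2 lower (0.0125%). DESeq2 without the block called 109 (0.682%), 80 higher (0.501%) and 29 lower (0.182%), and 22 of the 25 blocked calls were among them. Leaving out the non-breeding library of animal 1 gave 200 calls and leaving out that of animal 2 gave 1389, whereas leaving out either breeding library gave 0. The median log2 difference over all genes was 0.00.

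HOMER1 (chr6:76183530-76348444, minus strand), which encodes a scaffold protein whose short form is induced by activity, was at 67.7 and 378 CPM in the non-breeding and breeding library of animal 1 and at 90.4 and 624 CPM in animal 2. Both breeding libraries lay above both non-breeding ones, with a log2 difference of 2.78 (SE 0.34, edgeR adjusted p = 0.378, and 0.0116 with the animal as a block). FOSL2 (chr13:80534960-80556218, minus strand), the gene of a subunit of the AP-1 transcription factor, was at 16.7, 82.3, 21.8 and 99.2 CPM, a log2 difference of 2.35 (SE 0.25, edgeR adjusted p = 0.354, blocked 0.0116). NR4A3 (chr15:43049933-43093904, minus strand), an orphan nuclear receptor induced by cAMP in other cells, was at 9.22, 147, 26.1 and 220 CPM, with a log2 difference of 3.48 (SE 0.53, edgeR adjusted p = 0.661, blocked 0.0116). Taken within animals, the log2 ratio of breeding to non-breeding CPM was 2.46 in animal 1 and 2.77 in animal 2 for HOMER1, 2.24 and 2.14 for FOSL2, and 3.86 and 3.03 for NR4A3.

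TBC1D9, a gene of the RAB-GTPase regulator family, was at 41.1, 157, 43.4 and 183 CPM, and its breeding libraries both lay above the non-breeding ones (log2 difference 2.12, SE 0.22, edgeR adjusted p = 0.354, blocked 0.0116). ZDBF2, an imprinted gene in other mammals, was at 15.5, 58.4, 16.4 and 78.8 CPM (log2 difference 2.22, SE 0.26, edgeR adjusted p = 0.378, blocked 0.0221). GAREM1, an adaptor in growth factor signalling, was at 126 and 373 CPM in animal 1 and 126 and 376 CPM in animal 2 (log2 difference 1.69, SE 0.21, edgeR adjusted p = 0.378, blocked 0.0262). WT1 (chr14:32991866-33040624) was the one Sertoli identity gene called with the block (log2 difference 1.30, SE 0.22, edgeR adjusted p = 0.679, blocked 0.0452).

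The other named genes called higher with the block were ELL2, USP36, ESYT2, ATXN7, ZNF331, ARIH1, EOLA2, ASTN2, GRAMD1B, CDC14B, PRMT9 and ZNF268, and 4 further IDs without a symbol. Both genes called lower with the block were IDs without a symbol. ENSMMUG00000062077 had the lowest p of all genes and was at 1052, 178, 1146 and 133 CPM (log2 difference -2.71, SE 0.27, edgeR adjusted p = 0.354, blocked 0.0122). ENSMMUG00000055690 was at 5804, 1301, 7636 and 819 CPM (log2 difference -2.55, SE 0.37, edgeR adjusted p = 0.618, blocked 0.0446), so that both breeding libraries lay below both non-breeding ones for each. Of the symbols lower in the breeding season, CCK, the cholecystokinin gene, was at 45.1, 7.91, 32.0 and 12.1 CPM (log2 difference -1.83, SE 0.33, edgeR adjusted p = 0.733, blocked 0.0867) and RPGRIP1, a ciliary gene, was at 22.3, 2.19, 9.26 and 2.16 CPM (log2 difference -2.73, SE 0.51, edgeR adjusted p = 0.733, blocked 0.0867). Neither passed in either fit, although their seasons did not overlap. Seasons that do not overlap were common, in 5650 of the genes (35.4%), 13.2% higher and 22.2% lower.

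**Figure D4:**
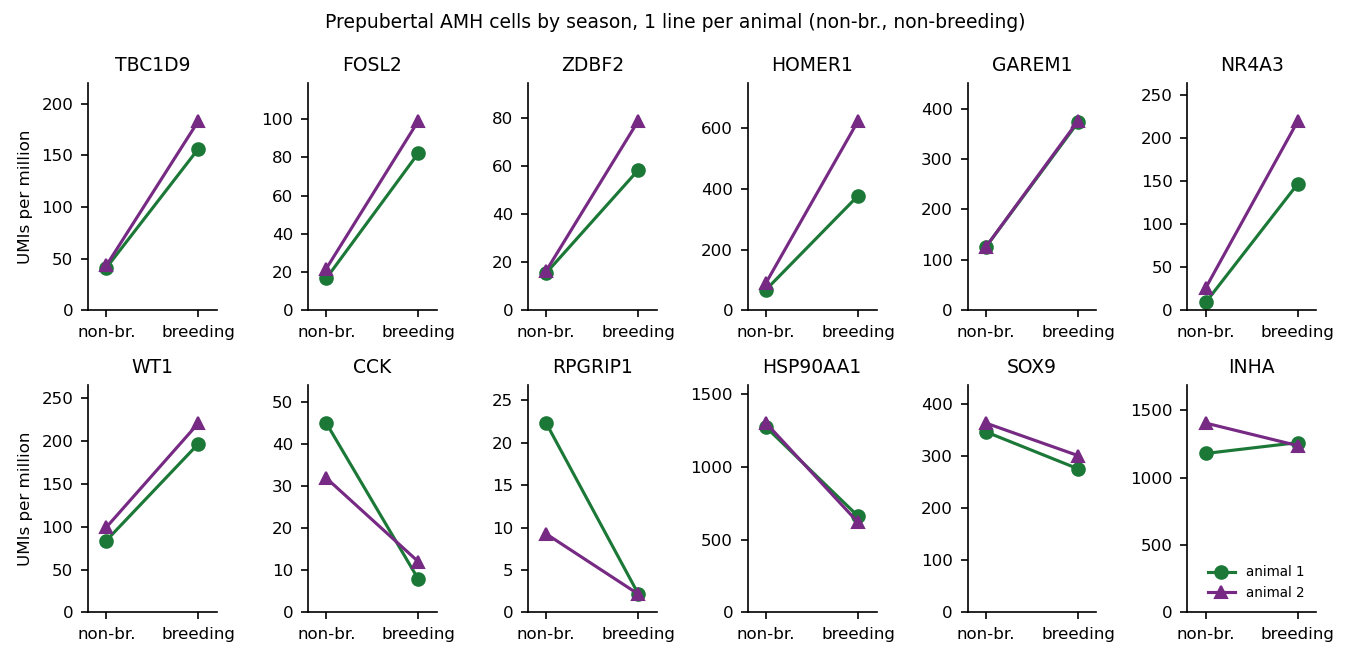
Levels (CPM, linear axis from 0) of 12 genes in the AMH cells in the non-breeding and breeding season, with 1 line for each of the 2 prepubertal animals. HOMER1, FOSL2, NR4A3, TBC1D9, ZDBF2, GAREM1 and WT1 lay higher in the breeding library of both animals, CCK, RPGRIP1 and HSP90AA1 lower, and the animals moved in different directions for INHA.

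By function, the gene lists gave 0 genes with an adjusted p under 0.05 in the unpaired edgeR test. With the animal as a block, the list genes WT1, FOSL2 and NR4A3 were called. The counts here are from the unpaired test at an unadjusted p under 0.05, to be read against 4.56% higher and 1.82% lower over all genes. The blocked fit had 2188 genes under that unadjusted p, 1610 higher and 578 lower. Of 21 immediate early genes, 5 were higher and 0 lower (FOSL2, NR4A3, NR4A1, KLF6 and DUSP1), with a list median of 0.41 on the log2 scale, and FOS itself was at 733, 3929, 2653 and 2253 CPM without a seasonal order. Of 14 genes of the Notch pathway, which acts between neighbouring cells, 3 were higher (HES1, HEYL and NOTCH3) and 0 lower (median 0.20). Of 13 heat shock and unfolded protein genes, 0 were higher and 4 lower (median -0.56), among them HSP90AA1 at 1271, 660, 1299 and 617 CPM (log2 difference -0.90, SE 0.24, edgeR adjusted p = 0.758, blocked 0.0868).

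Of 13 Sertoli identity genes, 1 was higher (WT1) and 0 lower, with a median of -0.16. SOX9 had a log2 difference of -0.19 (SE 0.22, edgeR adjusted p = 0.99) and INHA one of 0.06 (SE 0.26, edgeR adjusted p = 1). Of 11 AMH regulators WT1 and GATA6 were higher (median 0.20), of 13 AMH signalling genes none (median 0.22, with 6 higher in both breeding libraries, as were 13.2% of all genes), and of 11 inhibin and activin genes none (median 0.33). Among 15 genes of FSH and cAMP signalling, the cAMP-responsive factor gene CREM was higher (median 0.33). Among 16 tight junction genes CGNL1, which links junctions to the cytoskeleton, was higher at 41.2, 78.6, 43.5 and 91.5 CPM (log2 difference 1.12, SE 0.21, edgeR adjusted p = 0.733, blocked 0.0665; list median 0.08). Of 15 adherens and gap junction genes NECTIN2 and VCL were higher (median 0.32), of 15 basement membrane genes none (median 0.08), and of 19 germ cell niche factors KITLG (median 0.01). Of 16 mature Sertoli genes, RHOXF1 was higher and TF and CST9L lower (median -0.31), and the CST9L difference rests on the non-breeding library of animal 1. Of 11 immature Sertoli genes, 0 were called either way (median -0.05), and the same held for 21 proliferation genes (median -0.28).

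Markers of other cells also moved with season in these sums. All 7 macrophage markers were lower in both breeding libraries than in both non-breeding ones (22.2% of all genes were), 4 of them with an unadjusted p under 0.05 (median -1.42), and their summed level was 32.3 and 36.0 CPM outside the breeding season against 11.8 and 14.3 CPM within it. The 3 erythroid genes tested summed to 410 and 336 CPM outside it and 1.62 and 57.4 CPM within it (median -3.06, 2 lower). Of 8 interstitial mesenchyme markers 4 were lower in both breeding libraries (median -0.33), among them COL1A2 at 42.5, 14.3, 28.3 and 12.6 CPM, the 1 with an unadjusted p under 0.05. Both T cell markers tested were lower in both breeding libraries as well (median -0.88). The 6 endothelial markers summed to 18.3 to 74.3 CPM with no seasonal order (median -0.01). None of the markers tested in these 5 lists was at 0 in any library (the untested erythroid gene HBM had 0 to 3 UMIs), and the part of such RNA in the season differences was not tested. Without the cells that held a UMI of another lineage edgeR called 0 genes (947 at an unadjusted p under 0.05), and without the CST9L cells likewise 0 (930 at an unadjusted p under 0.05).

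For age, AMH could not choose the cells, since it was the gene in question. Sertoli cells were therefore taken in every library as cells with a UMI of at least 2 of SOX9, WT1, FATE1, CLDN11, DHH and FSHR and none of DCN, COL1A1 or DDX4, and these 9 genes were left out of the calls. Among the AMH cells, 64.7, 70.1, 67.7 and 67.5% also met this second definition, its demand for no DDX4 UMI included. An AMH UMI was present in 98.0 to 99.8% of the prepubertal cells so chosen, and in 85.0 to 95.1% of all prepubertal cells within the limits. Of the older cells so chosen, 69.9 to 89.7% had one in the adult libraries with more than 1 such cell, and 8.47 to 45.5% in the aged libraries. Whether all older cells so chosen are Sertoli cells was not tested. The second definition gave 15330 prepubertal, 6137 adult and 608 aged cells. The adult breeding library of animal 2 held 333 barcodes and gave 1 cell, and the aged libraries gave 42 to 298 each, so the older groups rest mostly on non-breeding libraries. With at least 3 of the 6 markers the aged libraries gave 5 to 83 cells each. Counts were summed per animal over both seasons and tested over 2 animals per age in 1 edgeR fit.

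In the sums of these cells, levels before puberty were higher for the genes of AMH and its receptor, keratin 18, ID1, HES1 and immediate early genes. Levels were lower for several genes of glucose supply and of proliferation. Spermatid markers in the same sums stood at 185 and 3.94 CPM before puberty, 5856 and 20757 CPM in adults and 43880 and 43257 CPM in aged animals. The part of RNA from other cells in these differences was not tested. Against adults, 3897 of 17099 genes passed an edgeR adjusted p of 0.05 (22.8%), 1369 higher (8.01%) and 2528 lower (14.8%) before puberty. Against aged animals 7871 passed (46%), 4009 higher (23.4%) and 3862 lower (22.6%). Both comparisons share the prepubertal animals. The number against adults fell to 775 without prepubertal animal 2, 2076 without prepubertal animal 1, 2330 without adult animal 2, 2562 and 2492 without aged animal 1 or 2, and 0 in the non-breeding libraries alone (edgeR, 4739 at an unadjusted p under 0.05). Against aged animals it fell to 3735 and 5029 without prepubertal animal 2 or 1, 3794 and 4529 without aged animal 1 or 2, and 4871 in the non-breeding libraries. The median log2 difference over all genes was 0.02 against adults and 0.23 against aged animals, and the list medians below are to be read against these, as the list counts are against the shares of all genes given above. Scaling with DESeq2 size factors moved the second to 0.03.

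AMH was at 5519 and 5908 CPM in the 2 prepubertal animals, 2323 and 1259 CPM in the adults and 217 and 427 CPM in the aged animals, with no overlap between ages. Its log2 difference was 1.78 against adults (SE 0.50, edgeR adjusted p = 0.0445) and 4.28 against aged animals (SE 0.56, edgeR adjusted p = 0.00493). The first passed in 6 of 12 alternative settings and the second in all 12. AMHR2 was at 200 and 191 CPM before puberty, 88.0 and 55.5 CPM in adults and 13.8 and 10.2 CPM in aged animals (1.55, SE 0.31, edgeR adjusted p = 0.0183, and 4.14, SE 0.38, edgeR adjusted p = 0.00493).

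KRT18 was at 184 and 143 CPM before puberty, 16.3 and 3.76 CPM in adults and 21.8 and 38.4 CPM in aged animals, so that the prepubertal animals lay above both other groups (4.07 against adults, SE 0.66, edgeR adjusted p = 0.0154). CLDN3 was at 191 and 113 CPM, 64.4 and 10.5 CPM, and 11.5 and 16.6 CPM, which passed against aged animals (3.57, SE 0.88, edgeR adjusted p = 0.0164) but not against adults (2.11, SE 0.74, edgeR adjusted p = 0.0821). GATA4 was at 336 and 443 CPM before puberty, 150 and 106 CPM in adults and 43.6 and 47.3 CPM in aged animals (edgeR adjusted p = 0.0157 and 0.00493). PTGDS did not pass, at 2644 and 1208 CPM, 2371 and 4300 CPM, and 2652 and 6240 CPM (edgeR adjusted p = 0.444 and 0.181). Of the 7 Sertoli identity genes left for testing, 3 (AMH, KRT18 and GATA4) were higher and 0 lower before puberty than in adults (median 1.71). Relative to aged animals 6 were higher and 0 lower (median 2.57). This list holds AMH, CLDN3 and KRT18, the 3 markers that gave the cells their name. Its counts and medians are therefore a description and no independent support. Of 10 immature Sertoli genes, 3 were higher and 1 lower than in adults (median 0.65), and 6 and 1 relative to aged animals (median 1.85).

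**Figure D5:**
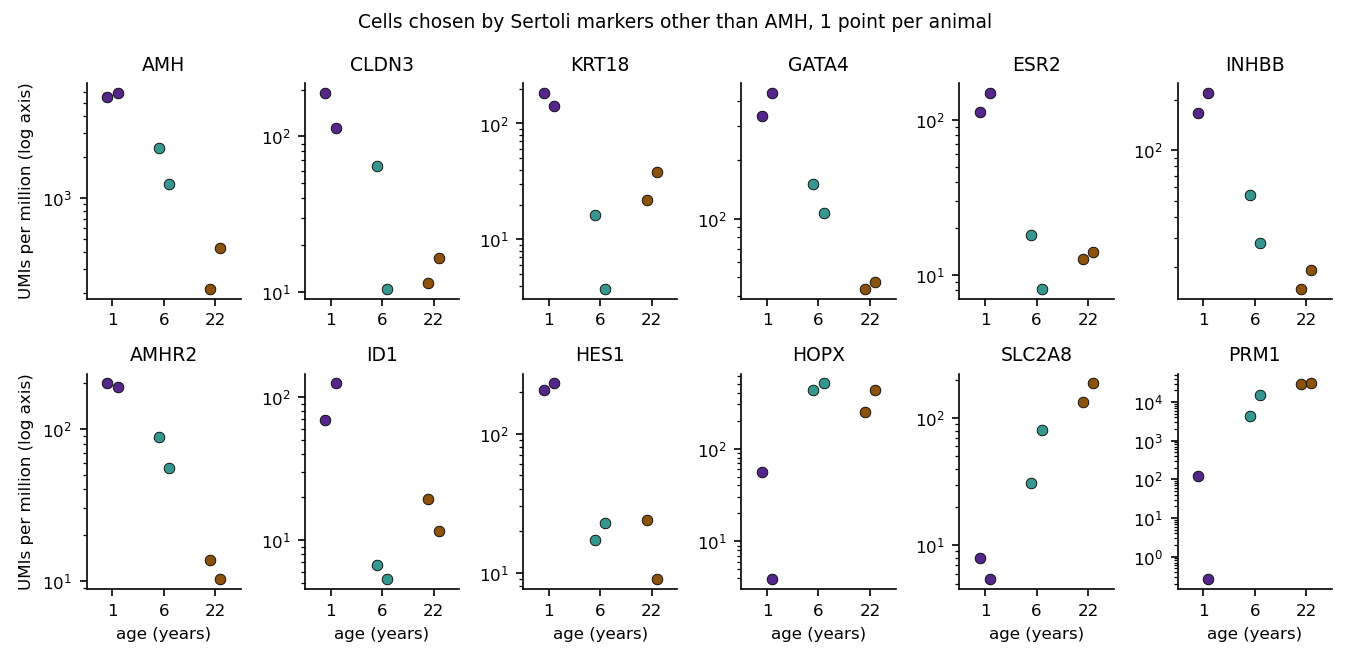
Levels (CPM, log axis) of 12 genes in cells chosen by Sertoli markers other than AMH, 1 point per animal at 1, 6 and 22 years (2 animals each, both seasons summed). Whether all older cells so chosen are Sertoli cells was not tested. AMH went from 5519 and 5908 CPM at 1 year to 217 and 427 CPM at 22 years, and KRT18 was lower in both older groups. SLC2A8 and the spermatid gene PRM1 were higher, and PRM1 did not pass against adults (edgeR adjusted p = 0.063).

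Of 7 AMH regulators tested, 3 were higher before puberty than in adults and 0 lower (median 1.05), and against aged animals 6 were higher and 1 lower (median 1.98). ESR2, the estrogen receptor beta gene, was at 113 and 150 CPM before puberty, 18.1 and 8.10 CPM in adults and 12.6 and 14.1 CPM in aged animals (3.40, SE 0.43, edgeR adjusted p = 0.0154 against adults). Of 14 AMH signalling genes, 7 were higher than in adults (median 1.22) and 10 higher than in aged animals (median 1.92), with 0 lower in either. ID1, one of their targets, was at 68.7 and 125 CPM, 6.68 and 5.34 CPM, and 19.5 and 11.5 CPM (4.09, SE 0.43, edgeR adjusted p = 0.0154 against adults, and 2.75, SE 0.44, adjusted p = 0.00529 against aged animals).

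Within the inhibin and activin family the subunits parted. INHBB was at 167 and 220 CPM before puberty, 53.7 and 28.1 CPM in adults and 14.9 and 19.2 CPM in aged animals, and passed against both (2.34, SE 0.37, edgeR adjusted p = 0.0154, and 3.63, SE 0.43, adjusted p = 0.00493). INHA was at 1297 and 1338 CPM before puberty and 1103 and 1002 CPM in adults, which did not pass (0.43, SE 0.38, edgeR adjusted p = 0.435), and at 265 and 505 CPM in aged animals, which did (1.90, SE 0.39, edgeR adjusted p = 0.00924). The activin-binding protein gene FSTL3 and SMAD3 were also higher against both. In all, 3 of 10 genes of this family were higher and 0 lower than in adults (median 0.76), and 6 and 0 relative to aged animals (median 1.53). Of 14 FSH and cAMP signalling genes, 4 were higher and 2 lower than in adults (median 0.37), and 5 and 3 relative to aged animals (median 0.94), near the 23.4% higher and 22.6% lower of all genes, with the adenylyl cyclase gene ADCY3 at 56.7 and 77.1 CPM, 15.2 and 7.51 CPM, and 2.29 and 3.84 CPM.

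Of 21 immediate early genes tested, 10 were higher and 0 lower than in adults (median 1.31) and 17 and 0 relative to aged animals (median 2.76). FOS was at 2452 and 2474 CPM before puberty, 575 and 815 CPM in adults and 152 and 216 CPM in aged animals (1.93, SE 0.36, edgeR adjusted p = 0.0167, and 3.87, SE 0.39, adjusted p = 0.00493). NR4A1, also among the 5 genes of this list that were higher in the breeding season, was at 426 and 481 CPM, 107 and 118 CPM, and 32.1 and 20.5 CPM. The prepubertal sums hold both seasons and the adult ones mostly non-breeding cells. Over 12 alternative settings the difference against adults ran from 0.88 to 2.51 for NR4A1 and from 1.36 to 2.31 for FOS. The lowest of each came from the non-breeding libraries alone, 0.88 for NR4A1 (edgeR adjusted p = 0.269) and 1.36 for FOS (adjusted p = 0.205). As 0 of 16623 genes passed against adults in that setting, the lost calls say nothing particular about NR4A1 and FOS. In the non-breeding AMH cells NR4A1 stood at 98.2 CPM in animal 1 and 292 CPM in animal 2, and FOS at 733 and 2653 CPM. These cells were chosen by AMH in 1 season, and the non-breeding library of animal 1 stood apart. The adult levels come from cells chosen without AMH and summed over both seasons, so the 2 kinds of level are not directly comparable.

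Genes that join Sertoli cells to each other and to the tubule wall were mixed. Of 16 tight junction genes, 2 were higher and 1 lower than in adults (median 0.24) and 5 and 2 relative to aged animals (median 0.99). Of 15 adherens and gap junction genes 5 were higher and 2 lower than in adults (median 0.53) and 7 and 0 relative to aged animals (median 0.71). Of 14 basement membrane genes, 3 were higher and 0 lower than in adults (median 0.28) and 4 and 2 relative to aged animals (median 0.58). COL4A2, a collagen IV chain gene, was at 129 and 210 CPM before puberty, 37.7 and 19 CPM in adults and 14.9 and 6.40 CPM in aged animals. Of 14 Notch genes only HES1, a transcriptional target of the pathway, was called against adults, at 207 and 230 CPM, 17.1 and 22.7 CPM, and 24.1 and 8.95 CPM (3.57, SE 0.42, edgeR adjusted p = 0.0154). Relative to aged animals 4 Notch genes were higher and 2 lower, and the list median changed sign from 0.55 to -0.22.

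Genes of the mature state did not move as one. Of 14 mature Sertoli genes, 3 were higher and 3 lower before puberty than in adults (median -0.84), and 4 and 2 relative to aged animals (median 0.27). HOPX was at 55.9 and 3.89 CPM before puberty, 429 and 505 CPM in adults and 249 and 425 CPM in aged animals (log2 difference -3.85, SE 1.08, edgeR adjusted p = 0.0436, and -3.36, SE 1.06, adjusted p = 0.0373), and TF was at 238 and 213 CPM, 542 and 529 CPM, and 144 and 258 CPM (-1.14, SE 0.33, edgeR adjusted p = 0.0488 against adults, passing in 5 of 12 alternative settings). CST9L, at 355 and 4.01 CPM before puberty and 3016 and 3183 CPM in adults, did not pass in the main fit (edgeR adjusted p = 0.11). It passed in 3 of 12 alternative settings, over which its log2 difference ran from -9.82 to -3.00. The prepubertal levels of CST9L and HOPX in animal 1 come mostly from the non-breeding library described above, where HOPX was at 93.2 CPM in the AMH cells against 3.72 to 7.10 CPM in the other 3. Without that library the HOPX difference was -6.36 against adults and -5.91 against aged animals, and 4759 genes passed against adults and 8060 against aged animals. Without prepubertal animal 1 the HOPX difference was -6.79 and -6.34.

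Sertoli cells feed germ cells with lactate made from glucose, and 5 of 15 genes of this supply were lower and 0 higher before puberty than in adults (median -0.68, with 14.8% of all genes lower), and 6 lower and 2 higher relative to aged animals (median -0.56, with 22.6% of all genes lower and 23.4% higher). SLC2A8, a glucose transporter gene, was at 7.88 and 5.41 CPM before puberty, 30.7 and 81.0 CPM in adults and 134 and 188 CPM in aged animals (-2.95, SE 0.51, edgeR adjusted p = 0.0154, and -4.47, SE 0.54, adjusted p = 0.00493).

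Of 21 proliferation genes, 10 were lower and 1 higher than in adults (median -1.29) and 9 lower and 5 higher than in aged animals (median -1.16). TOP2A, a topoisomerase gene of dividing cells, was at 13.3 and 12 CPM before puberty, 61.4 and 55.5 CPM in adults and 48.2 and 48.6 CPM in aged animals (-2.10, SE 0.26, edgeR adjusted p = 0.0154 against adults). With at least 3 of the 6 markers its difference from aged animals turned to 0.083 (edgeR adjusted p = 0.916). MCM3, a replication helicase gene, was higher before puberty, at 25.4 and 26.9 CPM, 11.1 and 12.8 CPM, and 1.15 and 1.28 CPM (passing against adults in 5 of 12 alternative settings and against aged animals in all 12). Of the 10 cell cycle exit genes 1 was higher and 1 lower than in adults (median -0.04), and 3 and 3 relative to aged animals (median -0.71).

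Marker RNA of other cells differed between the ages. The 6 spermatid markers summed to 185 and 3.94 CPM in the prepubertal animals (with 4 of the 6 at 0 in animal 2), 5856 and 20757 CPM in adults and 43880 and 43257 CPM in aged animals, and 2 of them passed against adults and all 6 against aged animals. The 7 macrophage markers summed to 13.5 and 13.0 CPM before puberty, 33.5 and 34 CPM in adults and 412 and 44.8 CPM in aged animals (3 of the 7 at 0 in aged animal 2), with 0 called against adults (edgeR, 1 at an unadjusted p under 0.05) and 6 lower relative to aged animals (median -3.88). The 4 T cell markers tested summed to 4.77 and 6.51 CPM, 5.81 and 7.71 CPM, and 58.5 and 15.3 CPM, with 3 lower relative to aged animals (median -5.42). The 6 endothelial markers summed to 34.7 and 18.1 CPM, 45.5 and 50.2 CPM, and 237 and 51.2 CPM, with 4 lower relative to aged animals (median -2.27). The 3 erythroid genes tested summed to 157 and 45.7 CPM before puberty, 5.05 and 11.7 CPM in adults, and 4479 and 11.5 CPM in aged animals, and 0 of them passed in edgeR (against adults 0 and against aged animals 1 at an unadjusted p under 0.05). The 7 spermatogonia markers tested summed to 149 and 115 CPM before puberty, 199 and 196 CPM in adults, and 71.1 and 155 CPM in aged animals, with 2 lower against adults (5 at an unadjusted p under 0.05, median -1.97) and 1 higher and 1 lower against aged animals (median -1.66). The 7 interstitial mesenchyme markers summed to 731 and 787 CPM, 649 and 528 CPM, and 437 and 541 CPM, with 1 lower against adults (median 0.00) and 1 higher and 2 lower against aged animals (median -1.05). Male germ cells are also known to express TOP2A and SLC2A8, and the part of such RNA in the age differences was not tested.

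The largest calls by size are given next. PCDH11X (chrX:88526120-89309219), a protocadherin gene, was at 527 and 908 CPM before puberty, 9.83 and 2.17 CPM in adults and 14.9 and 3.84 CPM in aged animals (6.92, SE 0.86, edgeR adjusted p = 0.0154, and 6.35, SE 0.90, adjusted p = 0.00495). CPXM1, a gene of the carboxypeptidase family, was at 90.8 and 58.3 CPM, 1.25 and 0.198 CPM, and 1.15 and 0 CPM (6.48, SE 0.68, edgeR adjusted p = 0.0154 against adults). The chemokine-scavenging receptor gene ACKR4 had 155 UMIs before puberty and 0 in adults, at least 17.0-fold higher against a floor of 3 UMIs over the group, the glucagon receptor gene GCGR 146 against 0 (at least 16-fold higher) and the phosphate transporter gene SLC34A3 71 against 0 (at least 7.79-fold higher). With 1 to 4 adult UMIs, KRT80 (530 prepubertal UMIs), NR0B2 (474), SLITRK2 (394), FAM3D (645) and COL26A1 (1325) completed the list against adults.

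Against aged animals, 10 genes with 0 aged UMIs led, among them FHDC1 (at least 17.8-fold higher), the gonadotropin-releasing hormone receptor gene GNRHR (at least 14.7-fold), the immediate early gene EGR4 (at least 14.1-fold), RAB3B (at least 12.9-fold) and TBX3, a T-box factor gene (at least 7.64-fold). In the other direction the secretoglobin gene SCGB3A2 had 1 prepubertal against 326 aged UMIs and MMP27, a matrix metalloproteinase gene, 1 against 57. TEX44 had 3 against 173, SMIM23 3 against 170, GLT6D1 2 against 104 and PRR30 6 against 167, and CCDC185 had 5 prepubertal against 440 adult UMIs. Spermatid markers summed to 5856 CPM or more in the adult and aged animals, and the part of such RNA in these lower calls was not tested. ACTRT1, an actin-related gene of the sperm head, had 0 prepubertal UMIs and was at least 148-fold lower than in adults and at least 747-fold lower than in aged animals, and the sperm tail gene ODF3 and FAM205A also had 0 prepubertal UMIs.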

How the data were processed

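The deposited files hold raw UMI counts per gene and cell, which the authors made with Cell Ranger 9.0.0 on Mmul_10 per the submitters' processing notes. The labels list 48 samples, 8 per age and season, and the 12 matrices were tied to animals through the study's library sheet, since no label names a matrix. That sheet calls the prepubertal libraries puberty. Cells were filtered as stated in the report, and neither doublets nor ambient RNA were removed here. Counts were summed per library (season) or per animal (age) and tested with edgeR 4.0.16 (TMM, filterByExpr, quasi-likelihood test, Benjamini-Hochberg, 0.05) in R 4.3.3, with DESeq2 1.42.0 as an alternative. Each edgeR SE printed is the absolute log2 difference divided by the square root of the F statistic of the test. Tests were tried on simulated data first. Both testes of an animal pair the seasons (correlation of deviations from the season means 0.42 over 15976 genes). Figures used matplotlib 3.10.9 and shares scipy 1.17.1. The members and the 33 gene lists (391 genes, 19 not in the feature table) were chosen with earlier results of these data known. Genes named are up to 10 by log2 difference per direction among calls that do not overlap, the 5 with the lowest p where fewer than 5 pass, and up to 4 per list by p. Others, such as the most variable genes, the genes of the CST9L cells, those high beside AMH-free cells and the remaining block calls, were picked after their values were seen. Some withheld items are not reported here. Alternatives are in the closing section.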

Additional observations from a re-analysis of the deposited data

How the results depend on the processing

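The season difference in the share of AMH cells (1.57 points) ran from -7.90 to 11 points when 1 library was left out, was 0.768 with at least 3 AMH UMIs and 3.89 after thinning to 1000 UMIs (shares of 63.0 to 79.2%), and turned negative without the non-breeding library of animal 1 (-7.90) or the breeding library of animal 2 (-3.34). With 2 libraries per season no setting of this test could pass. The 0 season genes became 25 with the animal as a replicate block, 109 with DESeq2 and 9 with no filter on low counts, and 0 to 1389 with 1 library left out, where the lone library was assumed to vary like the rest. The blocked calls recurred in part, with 22 of 25 under DESeq2 (20.2% of its 109), 9 of 25 without the filter, 17 of 25 among the 200 and all 25 among the 1389. Other settings were 3 or 10 AMH UMIs, cells of other lineages or CST9L cells removed, cells chosen by other markers, and DESeq2 size factors. They gave 0 calls and 888 to 988 genes at an unadjusted edgeR p under 0.05. A mitochondrial limit of 10% kept exactly the same cells, so it repeated the main fit and tested nothing further. The alternatives with 10 AMH UMIs, without CST9L cells and, for age, without the non-breeding library of animal 1 were chosen after seeing the data.

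The 3897 genes against adults ranged from 775 to 4736 with 1 animal left out and were 0 in the non-breeding libraries alone. The 7871 against aged animals ranged from 3735 to 8394, and were 4871 in the non-breeding libraries and 3337 with at least 3 of the 6 markers. DESeq2 gave 3273 higher and 4730 lower against aged animals where edgeR gave 4009 and 3862. Of the genes whose fitted differences are printed, INHA turned to -0.00658 with 10 AMH UMIs and ran from -0.0689 (without the non-breeding library of animal 1) to 0.238 with 1 library left out (season). Against aged animals, with at least 3 markers, TF turned to -0.962 and TOP2A to 0.0830, and TF ran from -0.0323 (without aged animal 1) to 0.809 with 1 animal left out. The causes were not tested. The depth of 132489 to 739782 UMIs per aged library limits the calls for low genes there.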

Other observations

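Genes induced by interferon, which signal the state of antiviral defence, were compared in the cells chosen by Sertoli markers other than AMH. Of 21 tested, 9 were higher before puberty than in adults and 0 lower (median log2 difference 1.43, with 8.01% of all genes higher). Relative to aged animals 5 of 21 were higher and 0 lower (median 0.82), a share close to the 23.4% of all genes called higher there. MX1, the gene of an antiviral GTPase, was at 59.2 and 83.7 CPM before puberty, 14.6 and 8.90 CPM in adults and 18.3 and 26.9 CPM in aged animals (log2 difference 2.69, SE 0.38, edgeR adjusted p = 0.0154, and 1.79, SE 0.39, adjusted p = 0.0116). IRF9, part of the factor that carries the interferon signal, was at 122 and 159 CPM, 22.4 and 38.7 CPM, and 28.7 and 46.0 CPM (2.31, SE 0.38, edgeR adjusted p = 0.0154, and 2.04, SE 0.39, adjusted p = 0.00757). Against aged animals MX1 passed in 8 of 12 alternative settings and IRF9 in 9 of 12. In the AMH cells IFI27, another gene of this list, was at 1532, 2132, 2337 and 2168 CPM, and 0 of 20 genes of the list had an unadjusted edgeR p under 0.05 between seasons (median 0.13).

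Metabolic and hormone lists were less uniform. Of 15 cholesterol and steroid genes, 3 were higher and 1 lower before puberty than in adults (median 0.06) and 5 and 0 relative to aged animals (median 0.67). CYP11A1, the first enzyme of steroid synthesis, was at 15.3, 37.9, 25.6 and 75.8 CPM in the AMH cells, with both breeding libraries above both non-breeding ones (log2 difference 1.59, SE 0.42, edgeR adjusted p = 0.758, blocked 0.0515). Of 15 retinoid genes, 2 were higher and 2 lower than in adults and 3 and 3 relative to aged animals. Of 7 thyroid hormone genes 0 were called against adults, and 2 higher and 2 lower against aged animals. Of 10 hypoxia genes 1 was lower and 0 higher than in adults, and 1 higher and 1 lower than in aged animals (medians -0.53 and -0.67). Of 10 antigen presentation genes 1 was higher and 0 lower than in adults (median 1.12), and 1 and 2 relative to aged animals, with a median of the other sign (-1.30). Of 7 intermediate filament genes 2 were higher and 0 lower than in adults, and 2 and 1 relative to aged animals. Of 16 germ cell niche factors 5 were higher and 2 lower than in adults and 2 and 2 relative to aged animals. Of 13 heat shock and unfolded protein genes 3 were higher and 0 lower than in adults (median -0.28), and 3 and 1 relative to aged animals (median 0.29). Between seasons, at an unadjusted edgeR p under 0.05, 0 of 15 retinoid, 0 of 10 hypoxia and 0 of 10 antigen presentation genes were counted (medians -0.04, -0.04 and -0.22), 1 of 7 thyroid hormone genes was higher (KLF9, median 0.15), and 1 was higher and 1 lower among 15 glucose and lactate genes (median -0.16) and among 9 cell cycle exit genes (median -0.17).

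The animals themselves differed in a few genes in both seasons. Of 13595 genes in the AMH cells, 4 were at least 10-fold higher (ratio of CPM + 1) in both libraries of animal 1 than in both of animal 2. CD300LG, a mucin-like receptor gene, was at 234 and 242 CPM in the libraries of animal 1 and at 0.679 and 1.10 CPM in those of animal 2. MAMU-DRB1, a class II antigen-presenting gene of a multigene family whose reads may be split between copies, was at 878 and 823 CPM against 61.8 and 44.9 CPM. CHRNA6, a nicotinic receptor gene, was at 31.7 and 45.9 CPM against 0.179 and 0.408 CPM, and PNLIPRP2 at 14.2 and 15.1 CPM against 0.429 and 0.449 CPM. The reverse held for 2 genes, C1QTNF7 (30.8 and 49.9 against 0.701 and 0.462 CPM) and KCTD8 (100 and 180 against 6.09 and 4.27 CPM). These genes were chosen after their values were seen, and with 1 animal on each side they carry no test.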
